A study of Mus musculus with 24 samples.

Results

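Dexamethasone, a synthetic glucocorticoid, was given alone to mouse bone marrow-derived macrophages, and its effect on each transcript after 24 h was set against its effect after 4 h. An effect is the log2 fold change of dexamethasone-treated over untreated cells of the same time, and the difference is the effect at 24 h minus the effect at 4 h. Every protein-coding gene that passed the filter on low counts was a member, 12224 of the 21876 protein-coding genes in a table of 55357 genes. Many effects were no longer the same at 24 h. Transcripts of mitosis, MHC class II molecules, ribosomal proteins and interferon-stimulated genes had a more negative effect at 24 h, while haptoglobin, serum amyloid A3 and a few other secreted proteins had a more positive one. Of 20 classical glucocorticoid targets, 14 were raised at both times, 9 of them by less at 24 h. Over all 12224 genes, 1442 were raised at both times, 290 of them by less at 24 h.

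Glucocorticoids bind the glucocorticoid receptor, which then enters the nucleus. There it turns on genes through its own DNA sites and holds back others, in large part by acting on NF-kB and AP-1. In macrophages the hormone is known for lowering inflammatory mediators and for raising scavenger receptors and receptors that take up dying cells. Some of the genes the receptor turns on first encode inhibitors, phosphatases and transcription factors of their own.

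The cells were grown from the marrow of wild-type (WT) C57BL/6J mice aged 8 to 12 weeks, in medium with L929 supernatant as the source of M-CSF. The 4 groups compared were untreated cells and cells with 100 nM dexamethasone, each at 4 h and at 24 h, with 3 libraries a group and none exposed to LPS. The other 12 of the 24 libraries came from cells given 100 ng LPS, a bacterial stimulus, alone or with dexamethasone at the same times. Neither the volume of the LPS nor a vehicle for the untreated cells is stated. No label ties a library to its own mouse or culture, so p-values measure the spread between these libraries, which may be technical.

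The cells of 4 h and 24 h differed in sex. All 6 libraries of 4 h held Y-linked transcripts and no Xist count, with Ddx3y at 74.7 ± 8.06 CPM (counts scaled to library size, mean ± SD, n = 3) untreated and 70.4 ± 3.20 CPM with dexamethasone. In all 6 libraries of 24 h the 4 Y-linked genes examined had no count, and Xist stood at 581.2 ± 25.4 CPM untreated and 483.5 ± 77.02 CPM with dexamethasone. The labels give neither sex nor batch. Each effect compares libraries of 1 time and so cells of 1 sex, but in the difference the length of treatment, the sex of the cells and any batch cannot be told apart. Levels at the 2 times are printed side by side as values and were not tested against each other. Totals were 18326206 to 27498535 counts a library. The macrophage markers (12 of 12 tested) summed to 17573 to 19614 CPM untreated and 18684 to 19208 CPM with dexamethasone at 4 h, and to 23097 to 25364 and 31013 to 35334 CPM at 24 h. Markers of neutrophils (10 of 12 tested) summed to at most 103.8 CPM in any library, and no erythroid marker passed the filter. Those of lymphocytes (2 of 12 tested, Cd4 and Cd79b) summed to at most 29.7 CPM. Both were lower with dexamethasone at 24 h, with sums of 26.75 to 29.7 CPM untreated and 6.00 to 7.45 CPM treated. Ly6g and Lum had no count in any of the 12 libraries.

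At 4 h dexamethasone raised 2462 protein-coding genes (20.1% of those tested) and lowered 3349 (27.4%). At 24 h it raised 2947 (24.1%) and lowered 3703 (30.3%). The excess of lowered genes depended on the setting: with only the 12 libraries in the fit 3039 were raised and 3044 lowered at 4 h, and with scaling by library size alone 3384 were raised and 3389 lowered at 24 h. The difference itself passed the test in 4353 genes (35.6%): it was positive in 1964 (16.1%) and negative in 2389 (19.5%). With a size of at least 2-fold as well, 239 genes (1.96%) had a positive and 777 (6.36%) a negative difference. The median difference over all 12224 genes was 0.00, and the median size without sign was 0.29 on the log2 scale. Across these genes the 2 effects had a Pearson correlation of 0.59, a description over genes that share libraries and are not independent.

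The calls separate several courses. Of the negative differences, 842 belonged to genes not called at 4 h and lower at 24 h, and 557 to genes lower at both times and more so at 24 h. A further 290 were higher at both times but less so at 24 h, 368 were higher at 4 h and not called at 24 h, and 298 were higher at 4 h and lower at 24 h. Of the positive differences, 649 were genes not called at 4 h and higher at 24 h, 588 were lower at 4 h and not called at 24 h, and 232 went from lower to higher. Another 243 were lower at both times and less so at 24 h, and 179 were higher at both times and more so at 24 h. The 107 other called differences were of genes called at neither time. In 2173 genes the effects were called in the same direction at both times and the difference did not pass.

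**Figure D1:**
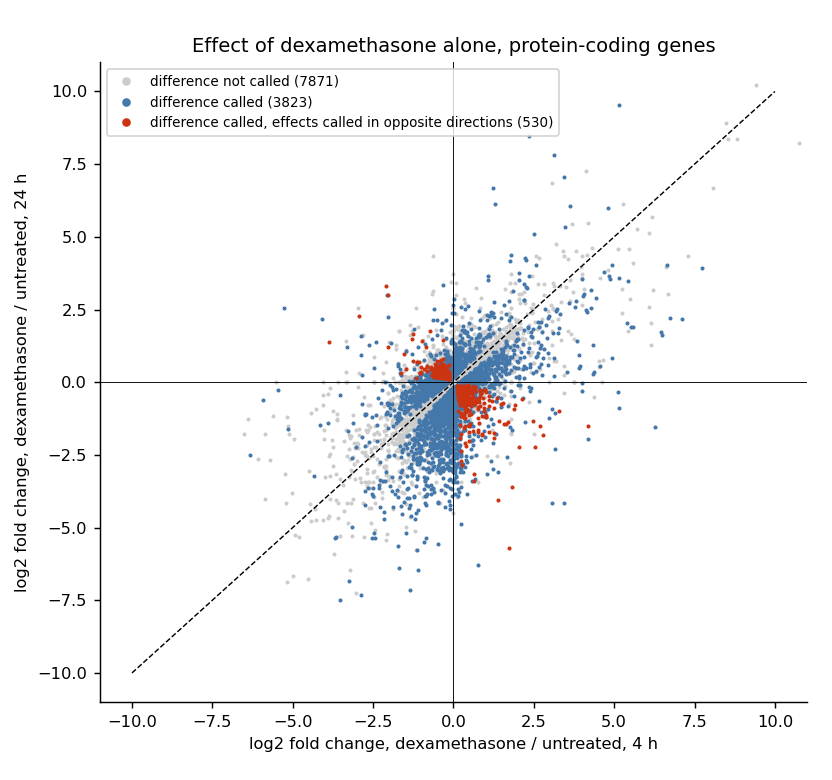
Each point is a protein-coding gene, with the log2 fold change of dexamethasone over untreated cells at 4 h on the x axis and at 24 h on the y axis. Points on the dashed line have equal effects, blue points have a called difference, and the 530 red points have a called difference and effects called in opposite directions.

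Classical glucocorticoid targets are known to be raised through the receptor's own DNA sites. Of 20 tested, 15 were higher and 2 lower at 4 h (median effect 2.17), and 15 were higher and 4 lower at 24 h (median 1.56). Over all protein-coding genes 20.1% were higher and 27.4% lower at 4 h, and 24.1% and 30.3% at 24 h. Higher at both times were 14, of which 9 rose less and 2 more at 24 h, against 1442 of all protein-coding genes, of which 290 rose less and 179 more. Their difference was negative in 12 and positive in 2, against 19.5% and 16.1% of all protein-coding genes. Its median was -0.44 against 0.00 over all protein-coding genes. The median of the difference was the same with Mt2, which had no count in the untreated 4 h libraries, set at a floor of 3 counts over the group. Fkbp5, a co-chaperone that binds the receptor complex, was 1 of the 2 with a larger response at 24 h. Its levels were 51.9, 52.4 and 52.9 CPM untreated and 1479.9, 1477 and 1486 CPM with dexamethasone at 4 h, and 16.3, 11.1 and 13.3 CPM untreated and 895, 825 and 842 CPM with dexamethasone at 24 h. Treated and untreated libraries did not overlap at either time, and the untreated level was lower at 24 h. The effect of 4.82 ± 0.069 (SE) at 4 h and 5.98 ± 0.077 at 24 h gave a difference of 1.16 ± 0.094 (adjusted p = 2.53e-12). The other was Cebpd, a transcription factor, whose difference of 0.54 (adjusted p = 0.0394) lost its call when only the 12 libraries were fitted and under several other settings.

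Tsc22d3, which encodes the anti-inflammatory protein GILZ, was raised at both times and by less at 24 h. It stood at 37.02, 35.8 and 38.8 CPM untreated and 974, 969 and 942 CPM with dexamethasone at 4 h, and 58.6, 66.6 and 65.2 CPM untreated and 898, 847 and 864 CPM with dexamethasone at 24 h. The untreated level was higher at 24 h, and the fold change fell from 25.9 to 13.7, a difference of -0.92 ± 0.086 (adjusted p = 1.21e-10). Klf9, a transcription factor, also rose at both times and by less at 24 h, with 5.10 ± 0.677 and 150.0 ± 1.39 CPM without and with the hormone at 4 h and 17.05 ± 1.59 and 197 ± 2.33 CPM at 24 h. Its difference was -1.33 ± 0.14 (adjusted p = 1.27e-09). Dusp1, a phosphatase that switches off MAP kinases, went from 57.4 ± 3.69 to 317 ± 8.11 CPM at 4 h and from 30.7 ± 1.41 to 108 ± 1.02 CPM at 24 h (difference -0.65 ± 0.10, adjusted p = 4.59e-06). For Nfkbia, the inhibitor of NF-kB, the difference was -0.35 ± 0.079 (adjusted p = 7.04e-04), and it was higher with dexamethasone at both times.

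Per1 and Ddit4 had no called difference. The clock gene Per1 stood at 27.3, 27.6 and 24.8 CPM untreated and 145, 157 and 146 CPM with dexamethasone at 4 h, and 33.9, 34.2 and 33.5 CPM untreated and 185, 190.3 and 207 CPM with dexamethasone at 24 h. It did not overlap between treated and untreated cells at either time, and the 2 effects, 2.49 and 2.52, differed by 0.03 ± 0.091 (adjusted p = 0.84). Ddit4, an inhibitor of mTOR signalling, was raised 369-fold at 4 h and 330.4-fold at 24 h, with a difference of -0.16 ± 0.22 (adjusted p = 0.643). A p that misses the threshold does not show equal responses. Not all listed targets were raised. Anxa1, which encodes the pro-resolving protein annexin A1, fell from 1219.8 ± 51.6 to 848 ± 23.6 CPM at 4 h and from 1343 ± 186 to 351 ± 16.9 CPM at 24 h (difference -1.41 ± 0.094, adjusted p = 8.46e-14). Zfp36, which speeds the decay of cytokine mRNAs, had an effect of 0.06 (adjusted p = 0.571) at 4 h and fell by 0.38 at 24 h, with a difference of -0.44 ± 0.11 (adjusted p = 0.0036). The receptor gene Nr3c1 fell by 0.53 at 4 h and by 0.44 at 24 h, and its difference of 0.09 ± 0.081 did not pass (adjusted p = 0.465). The inverted repeat that the receptor binds, AGAACA followed after 3 bases of any kind by TGTTCT, was found on either strand in 1 of 28 promoters of these targets (250 bases before the start, RefSeq, GRCm38.p6) and in 3 of all 32851.

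**Figure D2:**
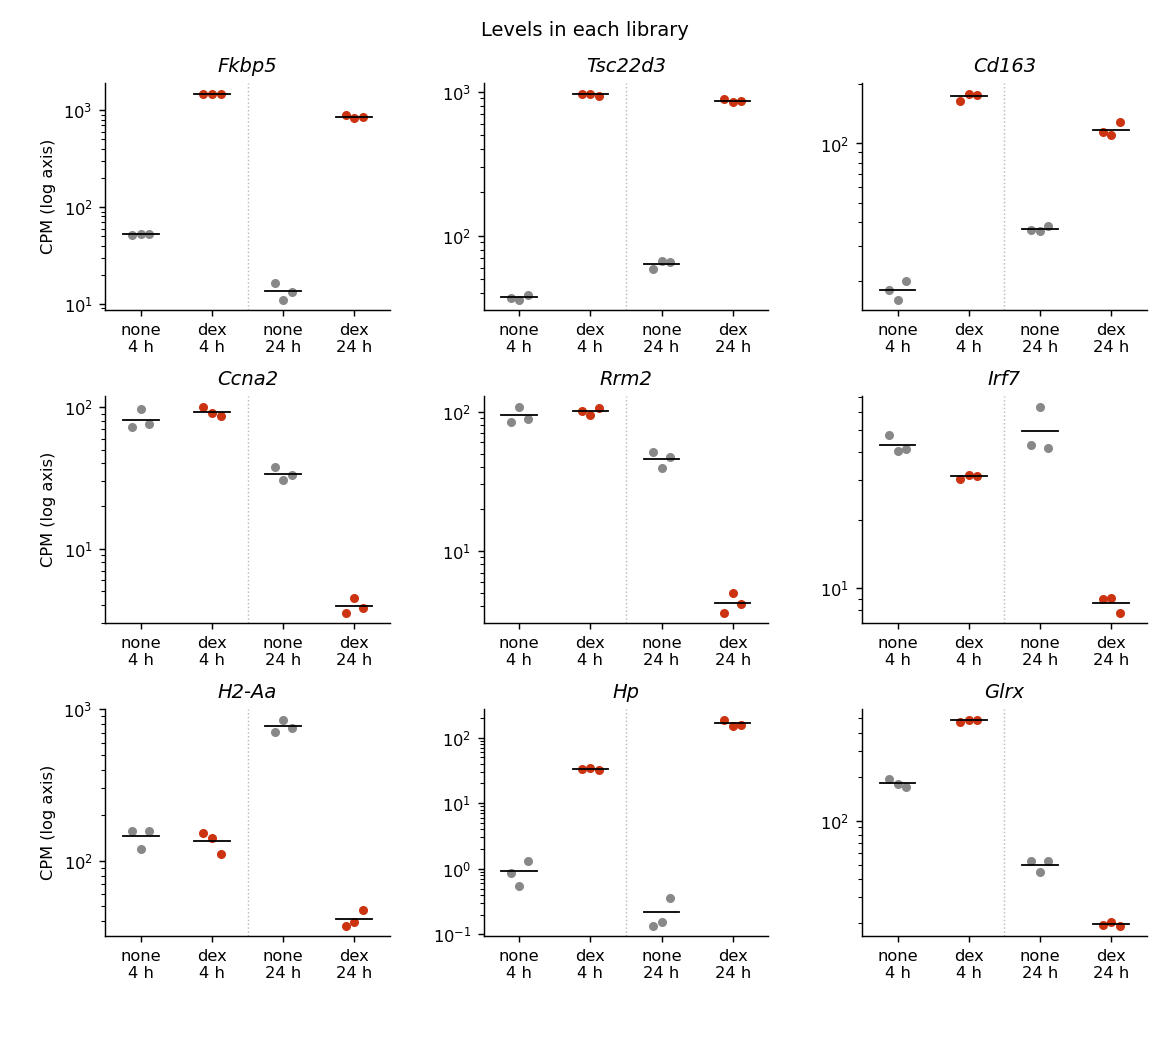
CPM in each library on a log axis for 9 genes, with untreated libraries in grey, dexamethasone libraries in red and a line at the group mean of 3 libraries. Fkbp5, Tsc22d3 and Cd163 were raised at both times, Ccna2, Rrm2 and H2-Aa overlapped between treated and untreated libraries at 4 h and were separate at 24 h, and Glrx was raised at 4 h and lowered at 24 h.

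Genes of mitosis overlapped or were close between treated and untreated cells at 4 h and were far lower with dexamethasone at 24 h. All 24 tested had a negative difference, against 19.5% of all protein-coding genes. The median was -2.59, with a range from -3.30 for Nusap1 to -1.58 for Aurkb. At 4 h their median effect was 0.06, with Plk1 (0.23) and Prc1 (0.25) higher, Bub1 (-0.29) and Top2a (-0.21) lower and 20 not called. These few calls at 4 h were not stable: without untreated replicate 2 of 4 h, 6 genes were higher and none lower, and without dexamethasone replicate 2 of 4 h none was called. At 24 h all 24 were lower, against 30.3% of all genes, with a median of -2.46. Ccna2, the cyclin of S phase and G2, stood at 72.4, 96.5 and 75.8 CPM untreated and 101, 91.4 and 85.99 CPM with dexamethasone at 4 h, and 37.5, 30.4 and 33.0 CPM untreated and 3.52, 4.51 and 3.82 CPM with dexamethasone at 24 h. The groups overlapped at 4 h, whereas at 24 h each treated library was below each untreated one, on average 8.52-fold. The difference was -3.28 ± 0.19 (adjusted p = 9.40e-13). Ccnb1, the mitotic cyclin B1, had 53.2 ± 7.31 and 56.5 ± 1.96 CPM without and with dexamethasone at 4 h and 21.6 ± 2.27 and 4.80 ± 0.551 CPM at 24 h (difference -2.26 ± 0.18, adjusted p = 4.00e-11). Nusap1, a spindle protein, fell to 2.56 ± 1.19 CPM from 23.6 ± 2.06 CPM at 24 h. The summed level of the 24 genes was 1498 to 1863 CPM in untreated cells at 4 h and 717 to 795 CPM in untreated cells at 24 h. These 2 levels come from cells of different sex and were not tested against each other. In bulk samples fewer cells of a kind, here dividing ones, and less RNA per cell cannot be told apart.

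Many promoters of these genes hold the CCAAT box, known as the site of NF-Y, and the letters TTTGAA of the cell cycle homology region. Promoters of 3 of the members that carry both are shown, chosen after their values were seen. They run 5′ to 3′ on the gene's strand over 250 bases up to the base before the start in RefSeq (GRCm38.p6), with CCAAT and TTTGAA on either strand in capitals: Top2a at chr11:99024190-99024439 (minus strand), Ube2c at chr2:164769679-164769928 (plus strand) and Ccnb2 at chr9:70421555-70421804 (minus strand).
Top2a: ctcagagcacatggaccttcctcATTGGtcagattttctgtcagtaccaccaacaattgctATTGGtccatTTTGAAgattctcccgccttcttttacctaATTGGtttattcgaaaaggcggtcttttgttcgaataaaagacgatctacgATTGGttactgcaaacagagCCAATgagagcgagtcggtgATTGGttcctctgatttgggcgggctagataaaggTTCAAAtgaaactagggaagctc
Ube2c: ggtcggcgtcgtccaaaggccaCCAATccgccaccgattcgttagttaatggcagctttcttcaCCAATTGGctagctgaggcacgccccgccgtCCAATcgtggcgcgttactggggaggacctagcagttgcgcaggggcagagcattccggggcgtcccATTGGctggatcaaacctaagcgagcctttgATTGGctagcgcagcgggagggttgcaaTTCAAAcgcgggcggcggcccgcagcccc
Ccnb2: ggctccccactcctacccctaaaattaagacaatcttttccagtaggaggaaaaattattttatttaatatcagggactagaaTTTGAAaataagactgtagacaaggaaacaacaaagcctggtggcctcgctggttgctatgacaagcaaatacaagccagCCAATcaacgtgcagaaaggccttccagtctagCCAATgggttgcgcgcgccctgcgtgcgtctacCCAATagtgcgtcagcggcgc
CCAAT was found 6 times in the Top2a and Ube2c promoters each and 3 times in that of Ccnb2. It occurred in 18 of 20 promoters of the mitosis genes (90%), against 35.4% of 12350 promoters of the protein-coding genes tested. Other lists also held it often, with 84.2% for cholesterol synthesis, 73.7% for clock genes and 65.2% for DNA replication. Shares were 35.7% for glucocorticoid targets and 31.4% for interferon-stimulated genes. TTTGAA occurred in 8 of the 20 (40%), against 10.8%. In the other lists searched it ranged from 0% for clock genes to 31.4% for interferon-stimulated genes. These are matches of letters and not evidence of binding. Top2a, which untangles DNA, stood at 247, 301 and 261 CPM untreated and 230.2, 232 and 235 CPM with dexamethasone at 4 h, and 122, 107 and 106 CPM untreated and 13.6, 16.5 and 13.7 CPM with dexamethasone at 24 h. The groups were close at 4 h, where its call was lost under several settings, and far apart at 24 h. Ube2c, the enzyme that feeds the anaphase-promoting complex, had a difference of -2.59 ± 0.22 (adjusted p = 1.06e-08) and Ccnb2, cyclin B2, one of -2.57 ± 0.17 (adjusted p = 1.29e-13).

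DNA replication genes, unlike the mitosis genes, were already lower at 4 h. Of 24 tested, 22 were lower and 1, E2f2, higher at 4 h (median -0.85), and 23 were lower at 24 h (median -1.70). Over all protein-coding genes 27.4% were lower and 20.1% higher at 4 h, and 30.3% were lower at 24 h. The difference was negative in 21 and positive in none, against 19.5% and 16.1% of all genes, with a median of -0.84. Mcm5, a subunit of the replicative helicase, stood at 189, 195 and 179.8 CPM untreated and 96.5, 97.5 and 98.01 CPM with dexamethasone at 4 h, and 66.2, 57.5 and 68.3 CPM untreated and 9.41, 8.34 and 6.97 CPM with dexamethasone at 24 h. Its groups did not overlap at either time, and the fall grew from 1.93-fold to 7.75-fold (difference -2.005 ± 0.13, adjusted p = 3.67e-14). Rrm2, the small subunit of ribonucleotide reductase, followed the course of the mitosis genes instead, with 84.8, 109 and 87.97 CPM untreated and 100.4, 94.6 and 106 CPM with dexamethasone at 4 h, and 51.03, 39.1 and 47.6 CPM untreated and 3.61, 5.00 and 4.20 CPM with dexamethasone at 24 h. It overlapped between groups at 4 h and was 10.8-fold lower at 24 h (difference -3.52 ± 0.24, adjusted p = 6.11e-10). The helicase subunit Mcm4 (0.02, adjusted p = 0.915), the transcription factor E2f1 (0.06, adjusted p = 0.726) and the flap nuclease Fen1 (-0.52, adjusted p = 0.119) had no called difference. Myc, the growth-promoting transcription factor, stood at 60.8, 61.5 and 58.4 CPM untreated and 50.8, 66.5 and 61.9 CPM with dexamethasone at 4 h, and 23.8, 18.4 and 26.1 CPM untreated and 2.36, 2.19 and 1.76 CPM with dexamethasone at 24 h. It overlapped at 4 h and was 10.8-fold lower at 24 h, with a difference of -3.42 ± 0.23 (adjusted p = 1.30e-11).

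**Figure D3:**
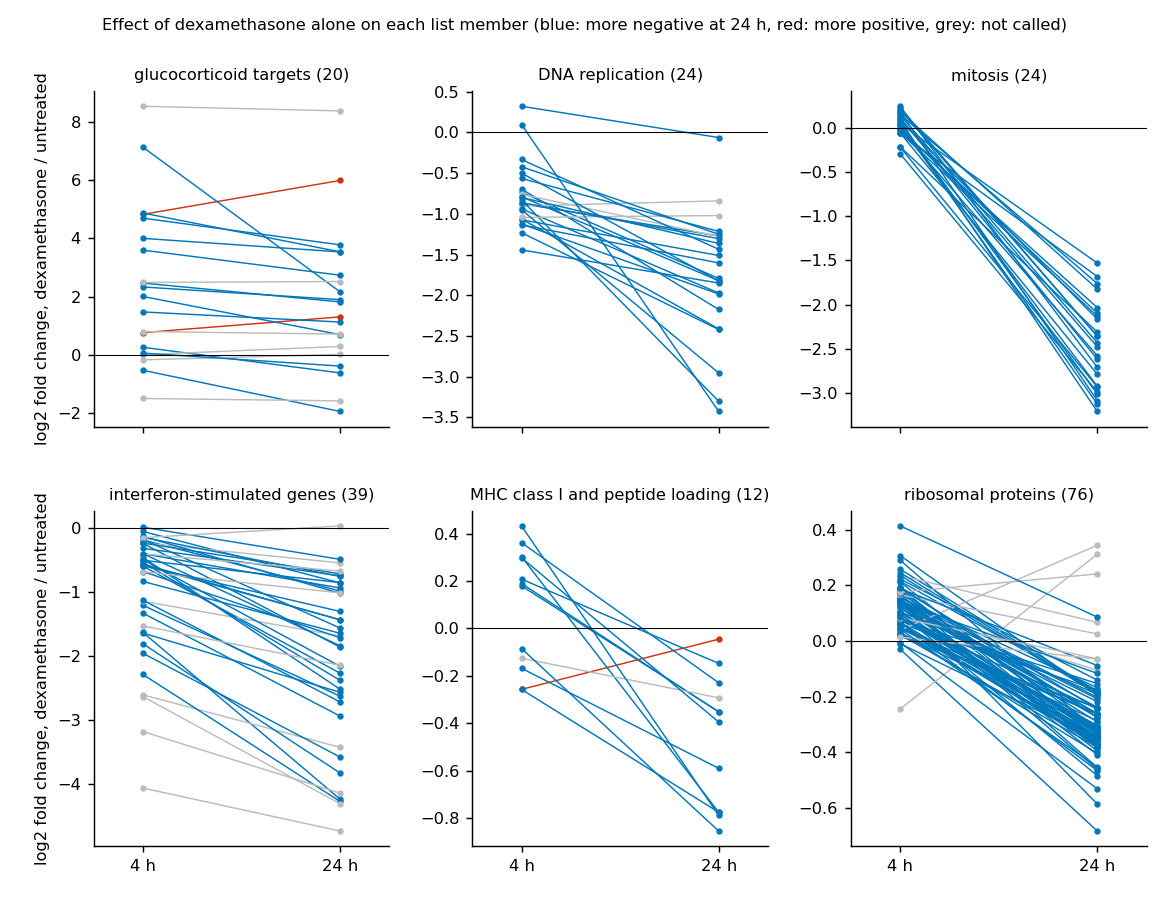
Each line joins the log2 fold change of 1 gene at 4 h and at 24 h in 6 gene lists, with the number of genes in brackets and a separate y axis for each list. Blue lines have a called negative difference, red lines a called positive one and grey lines no call; all 24 lines of mitosis and 68 of 76 of ribosomal proteins are blue.

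Interferon-stimulated genes were lower at both times and further down at 24 h. Of 39 tested, 31 were lower at 4 h (median -0.59) and 38 at 24 h (median -1.72), and none was higher at either time. Over all protein-coding genes 27.4% were lower and 20.1% higher at 4 h, and 30.3% and 24.1% at 24 h. The difference was negative in 29 and positive in none, against 19.5% and 16.1% of all genes, and had a median of -0.87. Irf7, the transcription factor that amplifies the interferon response, stood at 47.5, 40.4 and 41.4 CPM untreated and 30.5, 31.8 and 31.5 CPM with dexamethasone at 4 h, and 42.97, 63.7 and 41.7 CPM untreated and 8.96, 9.10 and 7.81 CPM with dexamethasone at 24 h. Treated libraries were below untreated ones at both times, by 1.38-fold at 4 h and 5.76-fold at 24 h (difference -2.06 ± 0.19, adjusted p = 6.19e-08). Of the 39, Slfn8 alone had a positive value, 0.18 (adjusted p = 0.388).

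The interferon-stimulated response element, searched on either strand as GAAA followed after 2 bases of any kind by GAAA, is where IRF proteins are known to bind. It was found in 19 of 35 promoters of these genes (54.3%), against 2.9% of the promoters of protein-coding genes tested. Matches are in capitals in the 250-base promoters of Isg15 at chr4:156200819-156201068 (minus strand) and Ifit1 at chr19:34640639-34640888 (plus strand), shown because both are widely used interferon markers, again 5′ to 3′ on the gene's strand in RefSeq (GRCm38.p6) and with overlapping matches joined.
Isg15: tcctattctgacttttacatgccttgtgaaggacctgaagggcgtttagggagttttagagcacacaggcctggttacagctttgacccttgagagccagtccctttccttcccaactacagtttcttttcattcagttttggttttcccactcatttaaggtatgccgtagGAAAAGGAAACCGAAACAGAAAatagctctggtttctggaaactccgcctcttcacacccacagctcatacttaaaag
Ifit1: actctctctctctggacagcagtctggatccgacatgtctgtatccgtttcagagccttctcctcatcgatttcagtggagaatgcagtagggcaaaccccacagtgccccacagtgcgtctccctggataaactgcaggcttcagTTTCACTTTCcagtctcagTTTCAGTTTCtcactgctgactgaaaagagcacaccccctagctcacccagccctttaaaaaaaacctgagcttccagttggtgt
Isg15, a ubiquitin-like modifier, has 3 matches in 1 stretch. Its levels were 18.2, 15.95 and 12.4 CPM untreated and 5.69, 4.17 and 5.20 CPM with dexamethasone at 4 h, and 17.7, 23.2 and 15.8 CPM untreated and 2.82, 3.26 and 3.48 CPM with dexamethasone at 24 h. Every treated library was below the untreated ones at each time, and the difference was -0.93 ± 0.27 (adjusted p = 0.012). Ifit1, which binds foreign RNA, has 2 matches. It was 6.11-fold lower at 4 h and 10.8-fold lower at 24 h, and its difference of -0.82 ± 0.45 did not pass (adjusted p = 0.19). A match is a description of letters only.

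MHC class II, which presents peptides to CD4+ T cells, held 3 of the 8 largest negative differences among genes with at least 5 CPM on average and 10 counts in each group. H2-Aa, its alpha chain, stood at 157, 119 and 158 CPM untreated and 152, 141 and 112 CPM with dexamethasone at 4 h, and 709, 855 and 749 CPM untreated and 37.4, 39.4 and 47.6 CPM with dexamethasone at 24 h. Treated and untreated libraries overlapped at 4 h and were 18.6-fold apart at 24 h, and the untreated level was far higher at 24 h than at 4 h. The difference was -4.11 ± 0.23 for H2-Aa (adjusted p = 2.57e-10), -4.25 ± 0.22 for H2-Eb1 (adjusted p = 7.18e-11) and -3.93 ± 0.25 for H2-Ab1 (adjusted p = 1.25e-09). Among 14 genes of antigen presentation by class II and of co-stimulation, 4 were lower at 4 h, near the 27.4% of all genes. At 4 h 1 was higher, against 20.1% of all genes. At 24 h 10 were lower and 1 higher, against 30.3% and 24.1%. The difference was negative in 8, against 19.5%, and positive in 2, near the 16.1% of all genes, with a median of -1.54. The positive ones were the co-stimulatory ligands Cd86 (0.52) and Icosl (0.51), and 1 of them lost its call without untreated replicate 1 or 3 of either time or dexamethasone replicate 3 of 4 h. Ciita, the master regulator of these genes, was lower at both times. It stood at 2.78, 4.01 and 2.90 CPM untreated and 0.509, 0.766 and 0.381 CPM with dexamethasone at 4 h, and 93.7, 119.8 and 88.3 CPM untreated and 7.30, 9.46 and 11.4 CPM with dexamethasone at 24 h. Its effect was already -2.52 at 4 h, when none of the 3 chains above had a called effect, and -3.42 at 24 h. Its difference of -0.91 ± 0.39 did not pass (adjusted p = 0.0815).

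Dendritic cells are rich in MHC class II. The summed level of 9 of 9 dendritic cell markers was 24.9 to 36.1 CPM untreated and 31.96 to 37.8 CPM with dexamethasone at 4 h, and 128 to 179 CPM untreated and 19.6 to 24.2 CPM with dexamethasone at 24 h. The difference was negative for Itgax (-3.33), an integrin that macrophages also make, and for Batf3 (-2.19) and Ccr7. It was positive for the growth factor receptor Flt3 (2.44), which dexamethasone raised at both times (3.63 and 6.08), and the other 5 were not called. Ccr7 and Xcr1 each had a group without a count. The part of such cells in the MHC class II result was not tested.

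MHC class I genes, which present peptides to CD8+ T cells, were mostly higher at 4 h and lower at 24 h. Of 12 tested, 7 were higher and 3 lower at 4 h, and none was higher and 11 were lower at 24 h. Over all protein-coding genes 20.1% were higher and 27.4% lower at 4 h, and 24.1% and 30.3% at 24 h. The difference was negative in 10, against 19.5% of all genes, with a median of -0.54 over the list. Psmb9, a subunit of the immunoproteasome, stood at 28.4, 29.1 and 29.6 CPM untreated and 37.5, 41.9 and 38.1 CPM with dexamethasone at 4 h, and 46.6, 50.1 and 48.1 CPM untreated and 29.8, 24.1 and 29.8 CPM with dexamethasone at 24 h. Dexamethasone libraries were all above untreated ones at 4 h and all below them at 24 h (difference -1.22 ± 0.12, adjusted p = 3.60e-10). Effects in the list were small, from -0.26 for Psmb8 to 0.43 for Psmb9 at 4 h. The peptide-trimming enzyme Erap1 had the only positive call (0.21, adjusted p = 0.0389), which was lost with only the 12 libraries in the fit and without untreated replicate 1 or 3 of either time, dexamethasone replicate 1 or 2 of 4 h or replicate 2 of 24 h.

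Among inflammatory mediators the course differed by gene. Tnf stood at 37.02, 33.9 and 35.9 CPM untreated and 7.03, 9.02 and 8.50 CPM with dexamethasone at 4 h, and 18.4, 15.5 and 18.8 CPM untreated and 1.74, 1.92 and 1.34 CPM with dexamethasone at 24 h. All treated libraries lay below the untreated ones, 4.34-fold at 4 h and 10.5-fold at 24 h, with a difference of -1.27 ± 0.17 (adjusted p = 2.28e-07). Il10, an anti-inflammatory cytokine, overlapped at 4 h (7.24 ± 1.23 CPM untreated, 7.75 ± 0.417 CPM treated) and fell from 4.83 ± 0.768 to 1.73 ± 0.155 CPM at 24 h (difference -1.57 ± 0.27, adjusted p = 6.40e-05). Genes of the NF-kB subunits and their feedback inhibitors had 5 positive and 3 negative differences among 19 tested, with a median of 0.14, shares near the 16.1% and 19.5% of all genes, and 8 were positive with scaling by library size alone. Relb, a subunit of the non-canonical pathway, fell 3.12-fold at 4 h and 1.39-fold at 24 h, so that its difference was positive, 1.17 ± 0.11 (adjusted p = 1.72e-10). Tlr2, a receptor for bacterial lipoproteins, stood at 82.5, 75.4 and 86.7 CPM untreated and 52.4, 56.9 and 55.9 CPM with dexamethasone at 4 h, and 80.6, 94.03 and 76.3 CPM untreated and 115, 102 and 102 CPM with dexamethasone at 24 h. It was lower with dexamethasone at 4 h and higher at 24 h without overlap (difference 0.91 ± 0.11, adjusted p = 3.77e-08). Of 20 genes of the Toll-like receptor pathway, 4 had a positive and 9 a negative difference, against 16.1% and 19.5% of all genes. Tlr5, Tlr6, Tlr7, Tlr8 and Tlr13 were higher at both times and less so at 24 h. Plau, which encodes urokinase, was strongly lower at both times (-4.42 and -4.78), and its difference of -0.36 ± 0.36 did not pass (adjusted p = 0.506). Of 19 chemokine genes 5 had a negative difference and 3 a positive one, again near the 19.5% and 16.1% of all genes, and the 5 became 3 without untreated replicate 2 or 3 of 4 h, dexamethasone replicate 1 or 2 of 4 h or replicate 1 or 3 of 24 h.

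The receptors Cd163, Mertk and Mrc1 were raised at both times and by less at 24 h. Of 16 alternative activation markers tested, Cd163 and Mrc1 included, 5 differences were positive and 6 negative, against 16.1% and 19.5% of all genes. Higher at both times were 10, of which 3 rose less at 24 h and 4 more (Chil3, F13a1, Selenop and Stab1). The others, Il4ra, Klf4 and Msr1, had no called difference. Cd163, which clears haemoglobin bound to haptoglobin, stood at 18.04, 16.1 and 20.1 CPM untreated and 165, 179 and 177 CPM with dexamethasone at 4 h, and 36.3, 35.98 and 38.1 CPM untreated and 114, 110.3 and 128 CPM with dexamethasone at 24 h. The groups did not overlap at either time, and the rise went from 9.61-fold to 3.20-fold (difference -1.59 ± 0.11, adjusted p = 5.30e-13). Mertk, a receptor for dying cells, rose 9.34-fold at 4 h and 5.67-fold at 24 h (difference -0.72 ± 0.13, adjusted p = 1.85e-04). Of 17 genes for the uptake of apoptotic cells, 3 had a positive and 3 a negative difference, near the 16.1% and 19.5% of all genes, and the negative ones numbered 8 with only the 12 libraries in the fit. Axl, a relative of Mertk, was lower at both times and more so at 24 h (-1.27 and -2.55), and its ligand Gas6 was lower at 4 h (-1.01) and not called at 24 h (-0.01, adjusted p = 0.966; difference 1.002). Mrc1, the mannose receptor, had 224 ± 30.7 and 1026 ± 85.8 CPM at 4 h and 564 ± 29.7 and 834 ± 36.6 CPM at 24 h, without and with dexamethasone (difference -1.63 ± 0.26, adjusted p = 9.02e-05). The integrin Itgam, a macrophage marker, rose 2.47-fold at 4 h and overlapped between groups at 24 h (difference -1.35 ± 0.085, adjusted p = 4.65e-15).

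The 4 largest positive differences among genes with at least 5 CPM on average, at least 10 counts in each group and no provisional symbol were those of the secreted proteins Saa3, Chil3, Lcn2 and Hp. Hp, haptoglobin, stood at 0.874, 0.553 and 1.33 CPM untreated and 32.9, 33.7 and 31.9 CPM with dexamethasone at 4 h, and 0.136, 0.156 and 0.358 CPM untreated and 188, 152 and 156 CPM with dexamethasone at 24 h. It was separate at both times, and untreated cells at 24 h had only 15 counts in all, so the size of its difference, 4.39 ± 0.55 (adjusted p = 2.52e-06), rests on few counts. Saa3, serum amyloid A3, rose from 1.30 ± 0.672 to 6.70 ± 1.86 CPM at 4 h and from 0.378 ± 0.352 to 134 ± 17.9 CPM at 24 h (difference 6.12 ± 0.58, adjusted p = 2.09e-07). Its untreated level at 24 h was low, with an SD close to the mean, so the size of its difference is uncertain too. Chil3, a chitinase-like protein of alternatively activated macrophages, rose from 17.5 ± 2.59 to 41.4 ± 5.17 CPM and from 1.23 ± 0.204 to 125 ± 11.3 CPM (difference 5.44 ± 0.32, adjusted p = 1.27e-10). For these 3 genes the treated level was higher and the untreated level lower at 24 h. Mmp8, a collagenase, stood at 10.3, 10.8 and 10.7 CPM untreated and 35.2, 35.6 and 36.0 CPM with dexamethasone at 4 h, and 7.79, 5.44 and 8.42 CPM untreated and 142, 124 and 117 CPM with dexamethasone at 24 h, and its difference was 2.41 ± 0.23 (adjusted p = 4.64e-08). The list of 13 acute phase and granule proteins as a whole had 4 positive differences, those of Saa3, Lcn2, Hp and Mmp8. It had 3 negative ones, those of Orm1, Mmp9 and Wfdc17, against 16.1% positive and 19.5% negative over all genes. Orm1, which had a group without a count, was higher at 4 h (6.45) and not called at 24 h (difference -4.71). F13a1, the A subunit of coagulation factor XIII, rose from 19.1 ± 2.89 to 216 ± 36.3 CPM at 4 h and from 29.8 ± 4.40 to 1214 ± 132 CPM at 24 h, effects of 3.48 and 5.35 (difference 1.87 ± 0.38, adjusted p = 0.00108). Folr2, a folate receptor of resident macrophages, went the other way, from -0.78 at 4 h to -3.08 at 24 h (difference -2.30 ± 0.14, adjusted p = 1.49e-15). Neutrophil markers, whose cells also make Hp, Lcn2 and Mmp8, summed to 96.99 to 104 CPM untreated and 89.2 to 90.6 CPM with dexamethasone at 24 h, and Ly6g was at 0. Of the 10 neutrophil markers tested, 5 were lower with dexamethasone at 4 h and 3 at 24 h, against 27.4% and 30.3% of all genes. None was higher at either time, against 20.1% and 24.1%. The difference was positive for Csf3r and negative for Cxcr2, which had a group without a count. The part of neutrophils in the levels of Hp, Lcn2 and Mmp8 was not tested.

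Most ribosomal protein genes had a small negative difference. Of 76 tested, 28 were higher and none lower at 4 h (median 0.12), against 20.1% and 27.4% of all genes. The 28 became 18 without untreated replicate 3 of 4 h and 49 with only the 12 libraries in the fit. At 24 h 63 were lower and 1, Rps27, higher (median -0.30), against 30.3% and 24.1% of all genes. The difference was negative in 68 and positive in none, against 19.5% and 16.1% of all genes, with a median of -0.41. Rpl10a stood at 319.6, 347 and 319.9 CPM untreated and 352, 373 and 359 CPM with dexamethasone at 4 h, and 395, 363 and 392 CPM untreated and 276, 249.6 and 241 CPM with dexamethasone at 24 h. Treated libraries were above untreated ones at 4 h, an effect of 0.14 whose call was lost under several settings, and below them at 24 h, with a difference of -0.72 ± 0.076 (adjusted p = 1.25e-09). Many ribosomal protein genes have near-identical processed copies elsewhere in the genome, and reads matching several places were not counted, so single values are uncertain. Nuclear genes of the respiratory chain had 21 negative differences among 74 tested and none positive (median -0.16), against 19.5% negative and 16.1% positive over all genes. That count was 38 with only the 12 libraries in the fit and 13 without dexamethasone replicate 2 of 24 h. The 13 genes encoded by mitochondrial DNA had no called difference by edgeR in either direction (median -0.05), none by DESeq2, and 1 negative at an unadjusted p under 0.05. With only the 12 libraries in the fit, 2 of them were called negative. In the lists named here with no positive difference by edgeR (mitosis, DNA replication, interferon-stimulated, ribosomal protein, respiratory chain and dual-specificity phosphatase genes), none was positive at an unadjusted p under 0.05 or by DESeq2.

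Metabolic genes outside the mitochondrion were mixed. Among 23 genes of the cholesterol synthesis list, 12 were lower at 4 h and 19 at 24 h, against 27.4% and 30.3% of all genes. The difference was negative in 12 and positive in 1, with a median of -0.75, against 19.5% negative and 16.1% positive over all genes. Hmgcs1, an early enzyme of the pathway, was lower at both times without a called difference (-0.15 ± 0.21, adjusted p = 0.641). The 1 positive difference was that of Pmvk, phosphomevalonate kinase, at 0.81 ± 0.14 (adjusted p = 1.76e-05). Abca1, which exports cholesterol, stood at 42.05, 52.7 and 45.7 CPM untreated and 14.8, 13.6 and 16.5 CPM with dexamethasone at 4 h, and 215, 229 and 204 CPM untreated and 246, 282 and 278 CPM with dexamethasone at 24 h. It was 3.11-fold lower with dexamethasone at 4 h and 1.24-fold higher at 24 h, where the call was lost without untreated replicate 3 or dexamethasone replicate 2 or 3 (difference 1.95 ± 0.17, adjusted p = 1.12e-08).

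Of 22 glycolysis genes, 5 had a positive and 11 a negative difference, against 16.1% and 19.5% of all genes, with a median of -0.17. Steps differed within the pathway. Pfkfb3, which makes the activator of phosphofructokinase, rose 1.75-fold at 4 h and 3.15-fold at 24 h (difference 0.84 ± 0.10, adjusted p = 7.04e-08), and Hk2, hexokinase 2, rose 1.19-fold and 1.65-fold (difference 0.47 ± 0.11, adjusted p = 7.12e-04). The aldolase Aldoc fell 1.55-fold and 6.68-fold (difference -2.11 ± 0.16, adjusted p = 9.67e-13). In the hypoxia list of 12, 5 differences were positive and 1, that of Ndrg1, negative, against 16.1% and 19.5% of all genes. Ndrg1, a stress-responsive gene, stood at 27.1, 26.97 and 27.5 CPM untreated and 96.4, 103 and 107 CPM with dexamethasone at 4 h, and 116, 122 and 115 CPM untreated and 68.6, 65.6 and 71.1 CPM with dexamethasone at 24 h. Dexamethasone libraries were above untreated ones at 4 h and below them at 24 h, and the untreated level was higher at 24 h (difference -2.69 ± 0.11, adjusted p = 1.45e-20). Vegfa, an angiogenic growth factor, was lower at both times and less so at 24 h (0.91 ± 0.15, adjusted p = 3.15e-05). In the clock list of 16, 4 differences were positive and 3 negative, near the 16.1% and 19.5% of all genes. Nr1d1, the repressor REV-ERB alpha, was lower at 4 h (-1.26) and higher at 24 h (0.73, a call lost without dexamethasone replicate 2 of 24 h), a difference of 1.98 ± 0.35 (adjusted p = 2.19e-05). Its levels were low, 1.97 ± 0.301 CPM untreated at 4 h and 3.47 ± 0.284 CPM untreated at 24 h. Among dual-specificity phosphatases, 7 of 11 had a negative difference and none a positive one (median -0.86), against 19.5% and 16.1% of all genes. Dusp6, which acts on ERK, rose 2.30-fold at 4 h and fell 1.55-fold at 24 h (difference -1.83 ± 0.13, adjusted p = 3.18e-13).

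**Figure D4:**
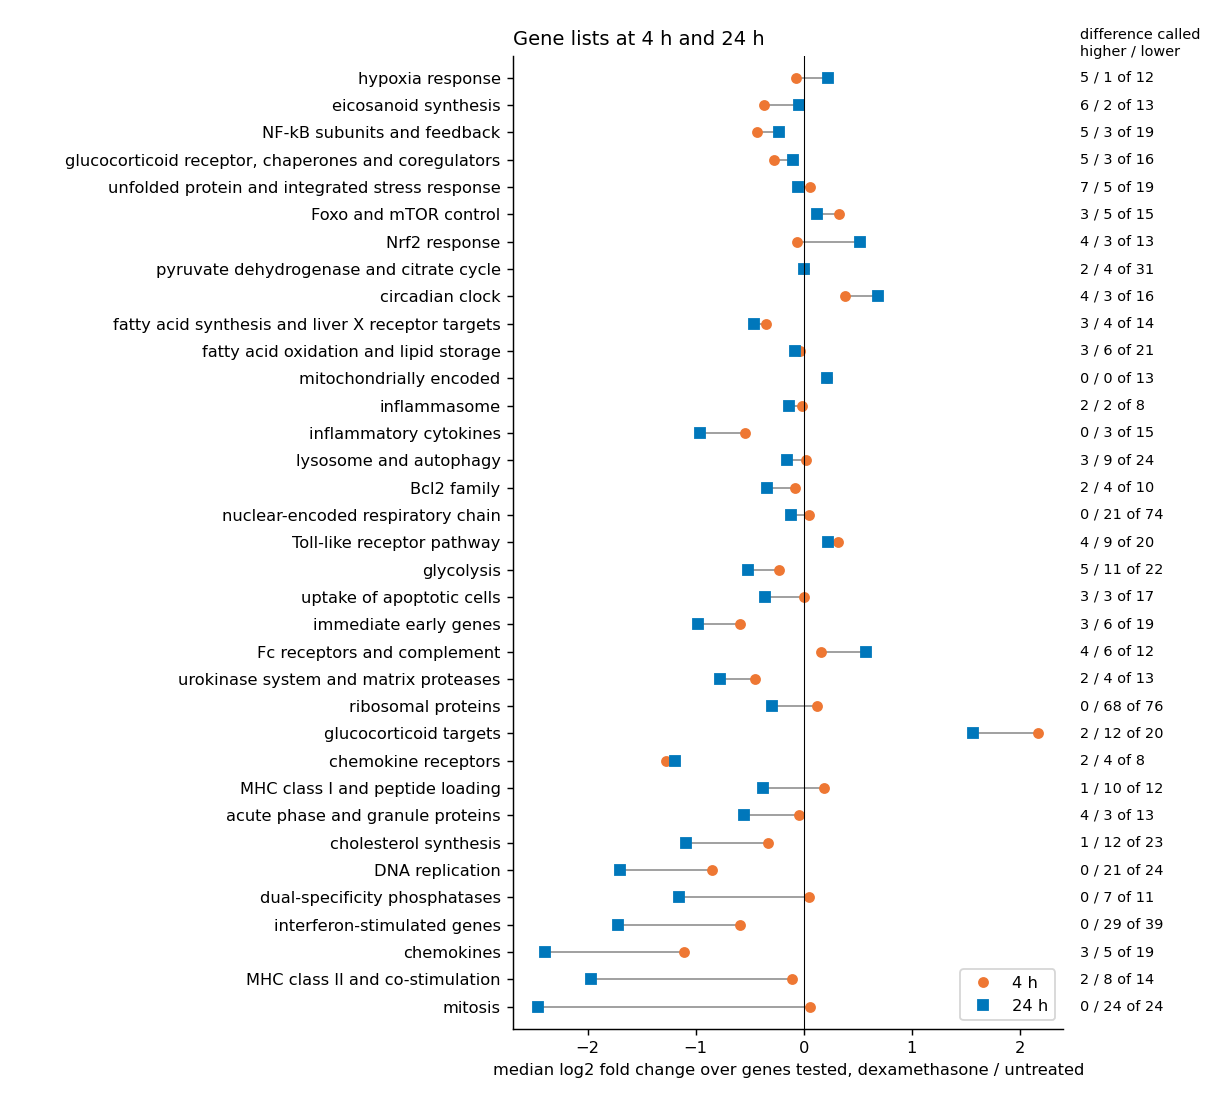
Median log2 fold change of dexamethasone over untreated cells in each gene list at 4 h (circles) and 24 h (squares), ordered by the median difference, with the number of genes whose difference was called positive and negative on the right. Mitosis, at the bottom, moved from 0.06 to -2.46, and the glucocorticoid targets stood at 2.17 and 1.56.

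Of the 530 genes with effects called in opposite directions, 298 were higher at 4 h and lower at 24 h. Their number was 244 to 302 when 1 library was left out in turn, and 464 with only the 12 libraries in the fit. Glrx, glutaredoxin, which reduces protein disulfides, stood at 192, 178 and 171 CPM untreated and 470.4, 492 and 492 CPM with dexamethasone at 4 h, and 52.8, 44.9 and 52.7 CPM untreated and 19.5, 20.3 and 19.2 CPM with dexamethasone at 24 h. Every treated library was above the untreated ones at 4 h and below them at 24 h, and both levels were lower at 24 h (difference -2.77 ± 0.089, adjusted p = 5.46e-23). Spp1, the secreted protein osteopontin, rose from 1337 ± 81.9 to 2903 ± 434 CPM at 4 h and fell from 864 ± 118 to 266 ± 43.0 CPM at 24 h (difference -2.82 ± 0.29, adjusted p = 6.50e-07). In the other direction, Nupr1, a stress-induced nuclear protein, stood at 9.46, 6.82 and 7.96 CPM untreated and 3.93, 4.30 and 4.23 CPM with dexamethasone at 4 h, and 5.25, 6.41 and 6.18 CPM untreated and 16.9, 15.9 and 15.5 CPM with dexamethasone at 24 h. It was lower with dexamethasone at 4 h and higher at 24 h without overlap (difference 2.41 ± 0.23, adjusted p = 1.28e-08). Shmt1, an enzyme of one-carbon metabolism, had effects of -1.08 and 0.69 (difference 1.77 ± 0.24, adjusted p = 3.10e-07). Gprc5b, an orphan receptor, lost nearly all of its response, from 2.98 ± 0.293 to 59.6 ± 6.33 CPM at 4 h and from 12.8 ± 0.811 to 15.6 ± 0.877 CPM at 24 h (difference -4.05 ± 0.18, adjusted p = 9.39e-19).

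The same difference was computed in cells under LPS, in 12 libraries that the comparison without LPS does not use. There 2639 protein-coding genes (21.6%) had a positive and 2802 (22.9%) a negative difference. Of the 2389 genes with a negative difference without LPS, 509 (21.3%) also had a negative one under LPS, near the 22.9% of all genes, and 828 (34.7%) had a positive one. Of the 1964 with a positive difference without LPS, 461 (23.5%) were positive and 610 (31.1%) negative under LPS. Across the 12224 genes the correlation of the 2 differences was -0.08, a description over genes, with the cells of each time of the same sex in both. The 2 differences themselves differed in 5396 genes (44.1%), with the value without LPS higher in 2626 (21.5%) and lower in 2770 (22.7%). Scaling by library size alone, without factors, made 4572 differences under LPS negative and 4166 values without LPS higher, so these counts depend on the scaling.

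Most mitosis genes had opposite signs without and under LPS. Under LPS 17 of 24 had a positive and 2 a negative difference (median 0.87), and all 24 had a lower value without LPS. Over all genes 21.6% were positive and 22.9% negative under LPS. The value without LPS was higher in 21.5% and lower in 22.7%. Ccna2 had 1.70 ± 0.25 under LPS against -3.28 ± 0.19 without it, and these differed (adjusted p = 2.63e-12). For DNA replication 17 were positive and 1 negative under LPS, and 18 of 24 values were lower without LPS. Myc had 3.82 ± 0.44 under LPS, -7.24 apart from its value without LPS (adjusted p = 8.63e-12). Interferon-stimulated genes were alike in sign, with 32 of 39 negative and 1 positive under LPS and a median of -0.76. The value without LPS was lower in 14 of them and higher in none. Ribosomal protein genes had only 5 negative and 4 positive differences under LPS, and 50 of 76 values were lower without LPS. Cholesterol genes were negative in 20 of 23 under LPS (median -1.63), and their value without LPS was higher in 11 and lower in 2. H2-Aa had -1.61 ± 0.25 under LPS, less negative than without it (adjusted p = 1.10e-05). For Chil3 (4.76 under LPS, adjusted p = 0.392 for the contrast of both) and Cd163 (-2.07, adjusted p = 0.11) no difference between the settings was called. Saa3 had -1.07 under LPS, opposite in sign to its value without LPS (adjusted p = 3.42e-08), and was far more abundant there, with 3568814 counts over 3 libraries with LPS alone at 24 h against 9492 with dexamethasone alone.

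**Figure D5:**
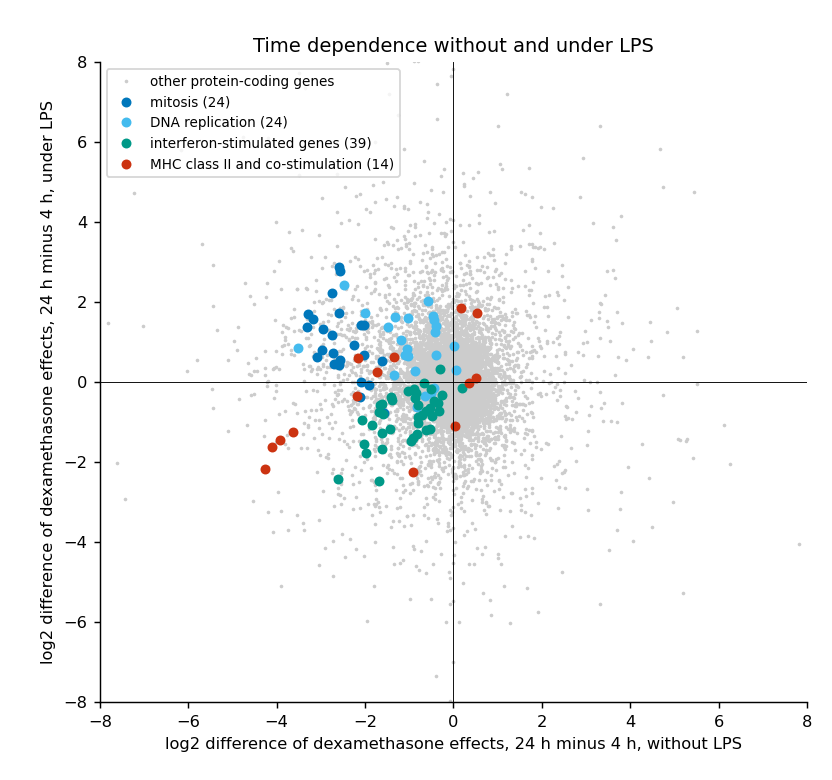
Each point is a protein-coding gene, with the log2 difference of dexamethasone effects, 24 h minus 4 h, without LPS on the x axis and under LPS on the y axis, and 6 genes lie outside the axes. The 24 mitosis genes lie to the left and mostly above 0, the 39 interferon-stimulated genes lie mostly to the lower left, and the genes of DNA replication (24) and of MHC class II and co-stimulation (14) are coloured too.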

How the data were processed

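RNA-seq libraries of mouse bone marrow-derived macrophages were analysed from 1 deposited table of whole-number counts per gene. Per the file headers, the authors counted read pairs with featureCounts 2.0.0, unstranded, over exons of GENCODE M29. The submitters' processing notes name STAR, without a version, and GRCm38 (mm10). GENCODE M29 annotates GRCm39, so the build is uncertain and no gene positions are printed; promoters are RefSeq's on GRCm38.p6. Antisense and overlapping genes cannot be separated in unstranded counts. Gene symbols and types came from GENCODE M21 by identifier, which named 52081 of 55357 genes. The exon length column was not used.

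All 24 libraries, LPS included, entered 1 edgeR 4.0.16 fit (R 4.3.3) with a mean per group, TMM scaling and filterByExpr (14985 genes kept). Contrasts were tested with the two-sided quasi-likelihood F test, with Benjamini-Hochberg adjustment over those genes and a threshold of 0.05; calls were counted in 12224 protein-coding genes. The fit had 16 residual degrees of freedom and a biological coefficient of variation of 6.29%. Standard errors are approximate, the log2 value over the square root of F. CPM values use the library total times its TMM factor. The procedure was tested on simulated counts. DESeq2 1.42.0, other scalings and filters, the 12 libraries alone, a replicate block and leaving out each library were tried as alternatives.

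The members, gene lists, marker lists and motifs were chosen with earlier results of these data known. Genes named are a fixed panel of 25, the 8 largest positive and 8 largest negative called differences (mean of at least 5 CPM, at least 10 counts in each group, no provisional symbol), 5 of each opposite course and up to 2 of each sign per list. Members of a list named beside its count, and the 5 genes whose promoters are shown, were chosen after their values were seen. Some genes that this rule names are not reported here. Counting error is the only error that depth covers, and p-values rest on 3 libraries a group.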

Additional observations from a re-analysis of the deposited data

Results flagged for a closer look

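The difference between the effects at 24 h and 4 h passed edgeR's quasi-likelihood test (Benjamini-Hochberg adjustment over 14985 genes) with a positive sign in 1964 and with a negative sign in 2389 protein-coding genes, and the 2 times also differ in the sex of the cells. In addition, 9 genes picked by rule are noted because the effects were called in opposite directions and the difference itself passed. Higher at 4 h and lower at 24 h were Slc24a3 (log2 difference -3.16), Phlda3 (-3.06), Spp1 (-2.82) and Glrx (-2.77). Lower at 4 h and higher at 24 h were Ppm1l (2.93), Nupr1 (2.41), Shmt1 (1.77), Myo19 (1.39) and Pigw (1.11). In all but Myo19 at 4 h, treated and untreated libraries did not overlap at either time. The 9 genes were picked for large effects called at both times, so this separation was largely set by the pick and adds no support. The 24 h call of Myo19 was lost when single libraries were left out.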

How the results depend on the processing

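No called value of a named gene changed sign under any alternative run. Positive differences numbered 1634 to 1880 and negative ones 2127 to 2359 when 1 library was left out in turn. With DESeq2 they were 2087 and 2443, and with RLE scaling 2006 and 2367. Scaling by library size alone gave 2470 and 2093, so that 54.1% of calls were positive against 45.1%, and a fit of only the 12 libraries gave 1705 and 2972 (36.5%). Library size alone also gave 4572 negative differences under LPS and 4166 values higher without LPS, and the 12 libraries alone gave 464 genes higher at 4 h and lower at 24 h; the cause was not tested. Leaving out a library took the effects at 4 h to 2223 to 2455 higher and 2967 to 3341 lower, and those at 24 h to 2494 to 2943 higher and 3343 to 3729 lower. The counts at 2-fold or more ranged over 205 to 242 positive and 730 to 796 negative. Opposite courses ranged over 244 to 302 genes higher at 4 h and lower at 24 h and 157 to 223 the other way.

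The labels do not say whether replicate numbers pair the libraries. Deviations from the group mean of same-numbered libraries correlated at -0.05 to 0.04, within and across times, and such small values cannot exclude pairing. With a replicate block 1935 differences were positive and 2363 negative, and with a block within each time 1906 and 2342.

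Of the values of single named genes, 186 lost and 35 gained a call over all alternatives and 10615 did neither. With 3 libraries a group and 18326206 or more counts each, genes with few counts in a group, such as Hp untreated at 24 h, have differences of uncertain size. Time, sex of the cells and batch remain confounded in each difference.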

Other observations

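Dcstamp, which cells need to fuse into osteoclasts and giant cells, stood at 24.5, 30.6 and 16.6 CPM untreated and 1.43, 2.00 and 2.75 CPM with dexamethasone at 4 h, and at 52.9, 24.7 and 48.1 and 0.249, 0.178 and 0.252 CPM at 24 h. It was lower with dexamethasone at both times and more so at 24 h (difference -3.96 ± 0.70, SE, adjusted p = 3.09e-04). The 5 osteoclast markers tested went different ways: Ocstamp (-3.38) and Atp6v0d2 (-1.42) also had a negative difference, Acp5 was higher at both times (3.10 and 2.57) and Calcr was not called. They summed to 63.02 to 87.97 CPM untreated and 76.4 to 86.7 CPM treated at 4 h, and 309 to 385 and 122 to 154 CPM at 24 h. The matrix protease Mmp12 fell 2.89-fold at 4 h and 17.2-fold at 24 h (difference -2.58 ± 0.41, adjusted p = 9.37e-05). Kdr, a receptor for VEGF, fell 17.7-fold at 4 h and 2.78-fold at 24 h (difference 2.67 ± 0.42, adjusted p = 5.11e-05), and Vcan, the proteoglycan versican, rose 5.64-fold and 34.2-fold (difference 2.60 ± 0.37, adjusted p = 1.42e-05). Of cell-division genes, Esco2, which joins sister chromatids, had a difference of -3.89, the centromere protein gene Cenpm -3.94 and the nuclease gene Ankle1 -4.01.

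Some genes of lipid mediator synthesis had positive differences. Ptgs1, which encodes cyclooxygenase 1, was lower with dexamethasone at 4 h (-0.66) and higher at 24 h (0.46), a difference of 1.11 ± 0.15 (adjusted p = 4.19e-07). Ltc4s, leukotriene C4 synthase, had 1.91 ± 0.710 and 1.90 ± 0.440 CPM at 4 h and 2.63 ± 0.318 and 6.81 ± 0.557 CPM at 24 h (difference 1.41 ± 0.39, adjusted p = 0.0048). Of 13 genes of eicosanoid synthesis, 6 had a positive and 2 a negative difference, against 16.1% and 19.5% of all genes. Asns, asparagine synthetase, a target of the integrated stress response, was lower with dexamethasone at both times and less so at 24 h (1.57 ± 0.20, adjusted p = 3.05e-07), while its untreated level was 64.9 ± 4.83 CPM at 4 h and 8.69 ± 1.89 CPM at 24 h.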
